A study of Mus musculus with 12 samples.

Results

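The genes described here encode the subunits of the oxidative phosphorylation system, and they were chosen by name. A gene was taken when its name on the array began with Ndufa, Ndufb, Ndufc, Ndufs, Ndufv, Uqcr, Cox4 to Cox8 or Atp5, or was Sdha, Sdhb, Sdhc, Sdhd or Cyc1. This gave 86 of the 27976 gene names on the array, on 121 of 41174 probes, and 82 of the 86 were measured in these livers. By name, 36 of the 82 belonged to complex I, 4 to complex II, 8 to complex III, 14 to complex IV and 15 to complex V. The other 5 matched the name rule but are no subunits: Ndufaf1 and Ndufaf2 are assembly factors of complex I, Cox4nb is now called Emc8, Atp5s is now called Dmac2l and Atp5sl is now called Dmac2.

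Liver RNA of male mice was hybridised to 12 Agilent 2-colour arrays, in 4 groups of 3 arrays. The groups were Cyp1b1 null mice on the high-fat diet (60% fat), Cyp1b1 null mice on the low-fat diet (10% fat), wild-type C57BL6/J mice on the high-fat diet and wild-type C57BL6/J mice on the low-fat diet. All mice went onto their diet at weaning at 3 weeks of age and were killed at 14 weeks, and the tissue label names hepatocytes of the liver. Each array set its sample, in the Cy3 dye, against a Cy5 reference pooled from wild-type livers on low fat, so each value below is a log2 ratio of sample over that pool. Each sample is labelled as a pool of 3, and no label says whether the 3 arrays of a group came from separate mice, so p-values measure only the spread between these arrays. For the null mice the labels give the genotype without a background strain. Cyp1b1 is a monooxygenase of the cytochrome P450 family with oestrogens, retinoids and polycyclic hydrocarbons among its substrates, and the comparisons ask how its loss and the diet bear on liver gene expression.

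Oxidative phosphorylation takes place in the inner mitochondrial membrane. Complex I takes electrons from NADH and complex II from succinate, both pass them to ubiquinone, complex III hands them on to cytochrome c, and complex IV gives them to oxygen. Complexes I, III and IV pump protons as they do so, and complex V, the ATP synthase, makes ATP from the gradient. A small core of subunits holds the flavins, iron-sulphur clusters, haems or nucleotide sites, and many accessory subunits surround it. Some core subunits are encoded by mitochondrial DNA and all others by nuclear genes. Hepatocytes are rich in mitochondria and use this system to power the synthesis of glucose and urea and to burn fatty acids.

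All 82 measured genes were well above background in the sample channel on all 12 arrays, as were 84.3% of the 14912 measured genes of the array. On each array 18375 to 23439 probes were well above background in Cy3 and 17286 to 25998 in Cy5 and precision is limited by having only 3 arrays a group. The 12 arrays lay on 4 slides that were read on 3 scan days. Slide 1 held null high-fat arrays 1 and 3 with array 1 of each wild-type group, slide 2 held null low-fat arrays 2 and 3, and slide 3 held array 2 of null high-fat, wild-type high-fat and wild-type low-fat with null low-fat array 1. Slide 4 held array 3 of each wild-type group and no null array. Slides 1 and 2 were read on the same scan day. The Cyp1b1 probe A_51_P255456 gave more signal in livers that are labelled null, by 2.22 on the log2 scale (SE 0.34, limma's adjusted p = 0.0764) at low fat and by 1.75 (SE 0.34, adjusted p = 0.221) at high fat. The sources used here do not place this probe inside or outside the deletion, so it is no check of the genotype, and null means labelled as such. Of the listed markers, 11 of 14 for hepatocytes were measured, and so were 13 of 14 for Kupffer cells, 9 of 9 for endothelium and 10 of 10 for stellate cells, so RNA of cells other than hepatocytes was present.

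The spread of these genes over the 12 arrays followed the slide more than the group. On each array the median log2 ratio of the 82 genes was between -0.43 and -0.23 on slide 1, at -0.41 and -0.23 on slide 2, between -0.07 and 0.21 on slide 3, and at -0.05 and 0.07 on slide 4. The median gene had 56.8% of its sum of squares between slides and 22.3% between groups, against 47.0% and 20.2% for the median of all 14912 genes. Of the 82 genes, 61 (74.4%) had more of their spread between slides than between groups, and 73.8% of all genes did, so this share was near that of the array as a whole. The direction of the slide gap was not. Slide 3 stood above the mean of slides 1 and 2 by a median of 0.33 over the 82 genes, with 66 of them higher, against a median of -0.03 over all genes. The main comparisons below are therefore also given within slides, where 1 slide held both groups. Wild-type low-fat array 2, on slide 3, stood apart. Over the 82 genes its profile correlated with those of the 11 other arrays at -0.21 to 0.33, with 0.05, 0.22 and 0.25 for the arrays of its own slide, while the 3 other arrays of slide 3 correlated with each other at 0.50 to 0.77. It had 18375 probes well above background in Cy3, against 20960 to 23439 on the others. Every low-fat genotype value within slide 3 rests on this array, and so do the wild-type diet values there, since it was the only wild-type low-fat array on that slide.

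**Figure D1:**
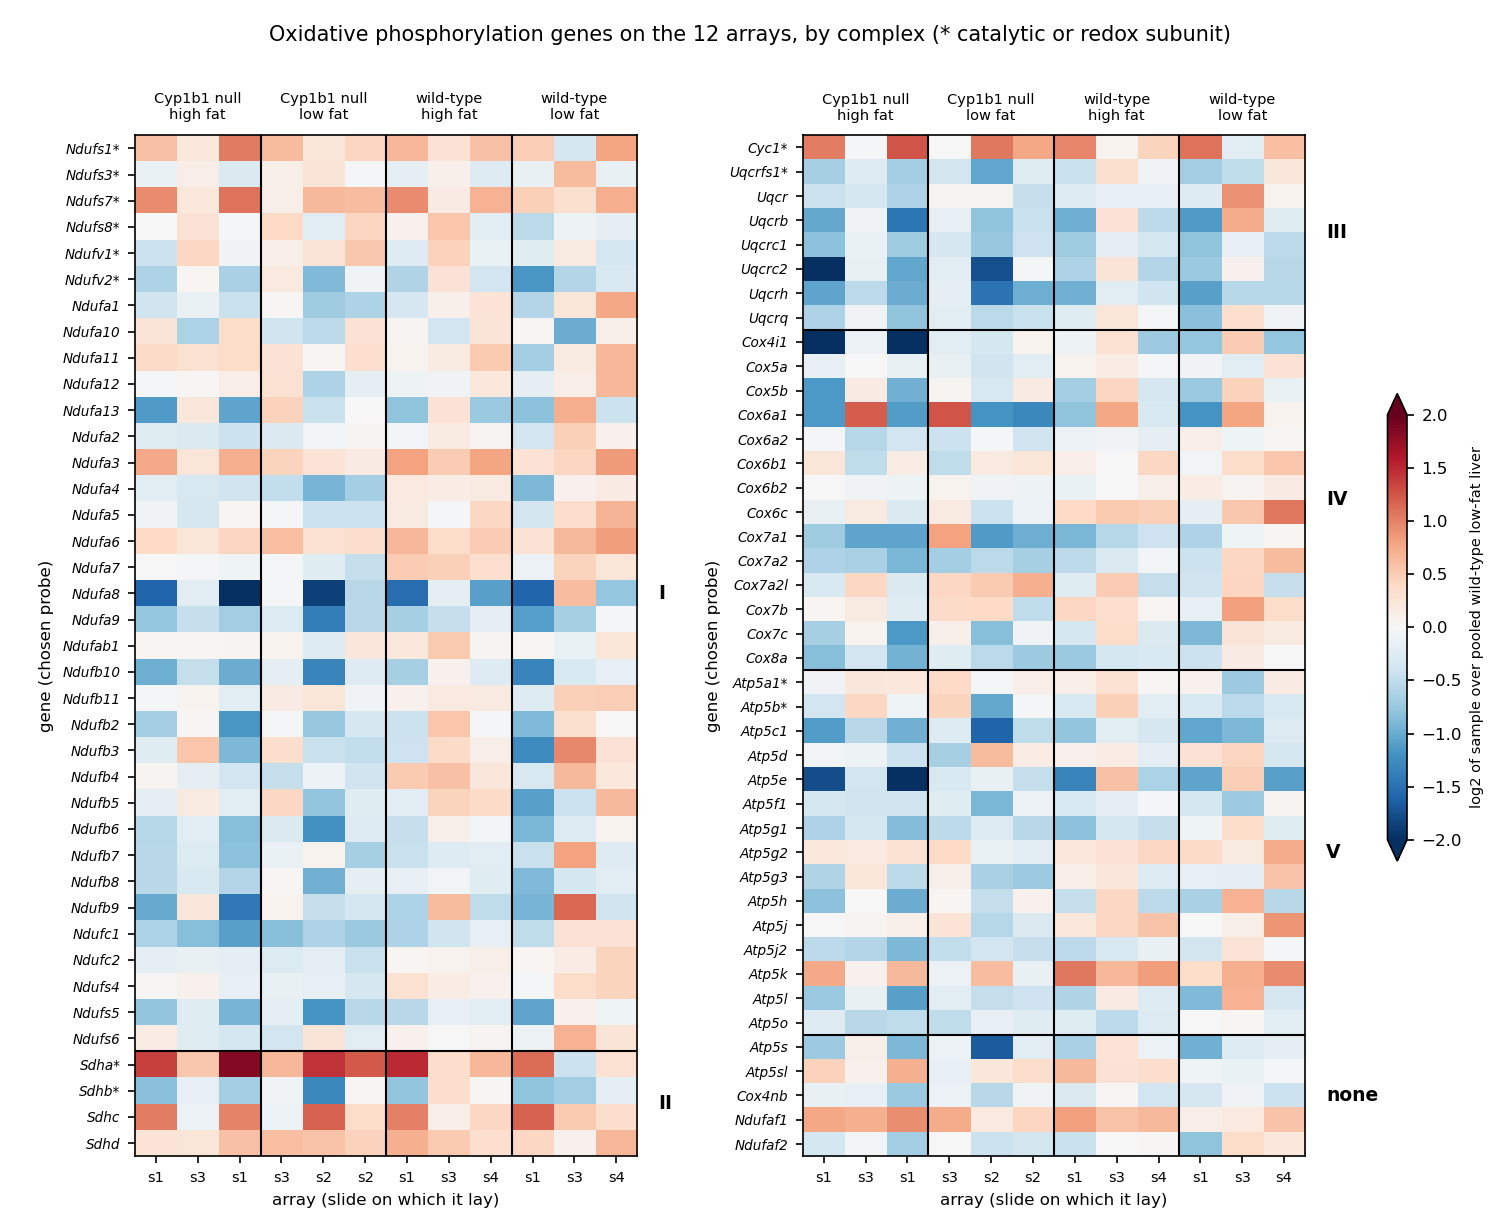
Log2 ratio of sample over pooled wild-type low-fat liver for the measured genes named here (rows, by complex, asterisks on catalytic or redox subunits) on the 12 arrays (columns, by group, with the slide under each). The columns of slide 1 and slide 3 differ within every group that holds both, as in Cox6a1, Atp5e, Ndufa8 and Sdha.

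The genes at the ends of this slide gap were of different roles. Cox6a1, the liver form of a small complex IV subunit, had mean log2 ratios of 1.01 on slide 3 and -1.12 on slides 1 and 2, but its probe was saturated in the sample channel on 9 of the 12 arrays, so the size of its gap is not measured. The accessory complex I subunits Ndufa8, Ndufb9 and Ndufb3 stood higher on slide 3 by 1.57, 1.31 and 1.19, and Atp5e, the epsilon subunit of the ATP synthase, by 1.25. At the other end, Sdha, the flavoprotein that oxidises succinate, stood at 0.28 on slide 3 and 1.41 on slides 1 and 2, a gap of -1.14. Cyc1, the cytochrome c1 of complex III, had a gap of -1.08, the membrane anchor Sdhc -0.86, and Ndufa10, Ndufs7 and Ndufs1 of complex I -0.67, -0.58 and -0.38. These genes, apart from those that also fall under the rule for named genes, were chosen after their values were seen.

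As a description over the 82 genes, the profiles of arrays that shared a slide but not a group had a median Pearson correlation of 0.791 over 12 pairs (0.0486 to 0.880). Arrays of the same group on different slides had a median of 0.255 over 10 pairs (-0.00365 to 0.824), and pairs that shared neither had 0.329 over 42 pairs. All pairs share the same reference pool. The range of a gene over the 12 arrays ran from 0.303 for Cox6b2, the testis form of a complex IV subunit, to 2.96 for Cox4i1, with a median of 1.29. The probe of Cox6b2 was dim, with a mean log2 brightness of 7.19, against 14.73 for Cox4i1.

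The first comparison was null against wild-type livers at low fat. None of the 82 genes passed limma's adjusted threshold of 0.05 (background 0.0201%, 3 of all measured genes), and the smallest adjusted p was 0.393. The values lay lower in null livers for 56 of the 82 and higher for 26, with a median log2 change of -0.19 against -0.01 over all genes, of which 50.9% lay lower. The sign of the median of the 82 genes was the reverse with the arrays centred on their median in place of loess (0.41, with all genes at 0.33). It was also the reverse with uncorrected signals so centred (0.17), where the median of all genes was close to it, at 0.18. At an unadjusted p under 0.05, 6 genes were lower (Atp5g1, Cox7a2, Ndufa7, Ndufc1, Ndufc2 and Ndufs4, background 3.76%) and Cox7a2l was higher (background 3.43%). The 3 null arrays lay below the 3 wild-type arrays for 6 genes (background 4.51%) and above them for 0 (background 4.8%).

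The median change was -0.18 for complex I, 0.13 for complex II, -0.21 for complex III, -0.25 for complex IV and -0.19 for complex V. A set of 13 measured subunits was picked from those with redox centres or substrate sites and from the conserved core of complex I. It is called catalytic or redox below. It included Ndufs1, Ndufv1, Sdha, Sdhb, Cyc1, Uqcrfs1 and Atp5b, and had a median of 0.14, with 11 higher and 2 lower. Sdhc (-0.22) and Sdhd (0.15), the membrane anchors of complex II, were not in the set and were counted with the other subunits. The 64 other subunits had a median of -0.22, with 52 lower. This grouping was made after values had been seen, so the split is given as a description. The median of the 13 was 0.13, 0.24 and 0.13 on the null low-fat arrays, above its value on every wild-type low-fat array, at -0.15, -0.35 and -0.15. For the 64 others the null low-fat arrays gave -0.13, -0.44 and -0.31, and the wild-type low-fat arrays -0.41, 0.33 and 0.08, so the groups overlapped. Within slide 3 the 13 had a median of 0.50, with 9 higher and 4 lower, and the 64 others -0.36, with 44 lower. Both rest on wild-type low-fat array 2. Within the first scan day, with the genotypes on different slides, the 13 had 0.15 and the 64 others 0.06, with 34 higher. With slide as a block 5 of the 13 lay lower (median 0.32), as did 45 of the 64 (median -0.27). In that fit the 7 of the 13 in complex I had a median of -0.01, with 4 lower, and the 29 other complex I subunits -0.16, with 19 lower.

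**Figure D2:**
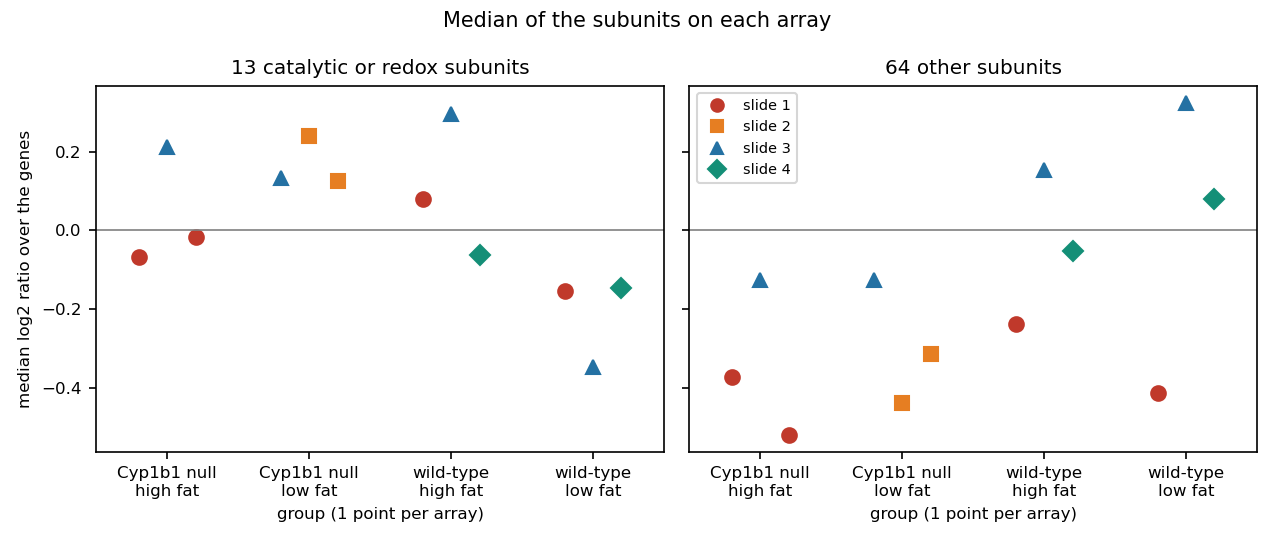
Median log2 ratio over 13 catalytic or redox subunits (left) and 64 other subunits (right) on each array, by group, with the symbol giving the slide. The other subunits lay highest on slide 3 in each group, at 0.33 on wild-type low-fat array 2, and the catalytic or redox subunits were lowest in wild-type livers on low fat.

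Within slide 3, with 1 array of each group, the median change of the 82 genes at low fat was -0.23, with 51 lower. Within the first scan day it was 0.08, with 35 lower, but there the null arrays lay on slide 2 and the wild-type array on slide 1, so slide and genotype cannot be told apart in that value. With slide as a block the median was -0.14, with 52 lower, and with scan day as a block -0.05, with 48 lower, and no gene passed the threshold in either. The part of the slide in this comparison was not tested beyond these values. Leaving out single arrays gave -0.38 without wild-type low-fat array 1, the lowest value, and -0.03 without wild-type low-fat array 2, the highest. Array 1 of the wild-type low-fat group also had the highest medians of all arrays for Kupffer cell (0.16), endothelial (0.38) and stellate cell markers (0.50), and the part of these cells in the result was not tested. In RNA from whole tissue, fewer cells of a type and less RNA per cell cannot be told apart.

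The 6 genes whose groups did not overlap at low fat were the complex I accessory subunits Ndufc1, Ndufc2 and Ndufs4, the complex IV subunit Cox7a2, and Atp5g1 and Atp5j2 of the membrane part of the ATP synthase. Cox7a2 (A_51_P319031), the liver form of complex IV subunit VIIa, had log2 ratios of -0.67, -0.55 and -0.67 on null low-fat arrays and -0.43, 0.41 and 0.63 on wild-type low-fat arrays. Its means were -0.63 ± 0.07 and 0.21 ± 0.56 (SD, n = 3 arrays each), a change of -0.84 (SE 0.25, limma's adjusted p = 0.443). Every null array lay below every wild-type array, the nearest being the wild-type array of slide 1. Within slide 3 the change was -1.09. On its other probe (A_52_P37894) the groups overlapped, with null arrays up to -1.02 and wild-type arrays down to -1.08.

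Ndufc1 (A_52_P254795), a small accessory subunit in the membrane arm of complex I, had -0.86, -0.62 and -0.74 on null low-fat arrays and -0.51, 0.29 and 0.28 on wild-type low-fat arrays. The change was -0.76 (SE 0.23, limma's adjusted p = 0.456), and -1.14 within slide 3. The groups did not overlap, and again the wild-type array of slide 1 lay nearest to the null arrays. On another probe of Ndufc1 (A_52_P270888) they overlapped, with null arrays up to -0.57 and wild-type arrays down to -0.65. Cox6c, another small subunit of complex IV, had 0.19, -0.43 and -0.11 on null low-fat arrays and -0.18, 0.54 and 1.05 on wild-type low-fat arrays. Here the groups overlapped, with a change of -0.59 (SE 0.28, limma's adjusted p = 0.702).

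At the upper end, Sdha (A_52_P109503) had 0.66, 1.45 and 1.23 on null low-fat arrays and 1.12, -0.42 and 0.30 on wild-type low-fat arrays, with overlap. The change was 0.78 (SE 0.44, limma's adjusted p = 0.775), and 1.09 within slide 3. Ndufs8, an iron-sulphur subunit of complex I, had 0.40, -0.23 and 0.43 against -0.54, -0.10 and -0.19, a change of 0.47 (SE 0.24, limma's adjusted p = 0.735). The null array of slide 2 with the lowest value reached into the wild-type range.

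Cox7a2l (A_51_P434803) encodes a relative of Cox7a2 that joins complexes III and IV into supercomplexes, and C57BL6/J mice carry a shortened form. It had 0.41, 0.52 and 0.72 on null low-fat arrays and -0.40, 0.42 and -0.46 on wild-type low-fat arrays. The wild-type array of slide 3 lay inside the null range, and within slide 3 the change was -0.01, against 0.70 (SE 0.31, limma's adjusted p = 0.687) over all arrays. With slide as a block the change was 0.00. On slides 1, 3 and 4 the arrays of different groups lay close together for this gene, with all 4 arrays of slide 3 between 0.41 and 0.51.

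The second comparison was null against wild-type livers at high fat. None of the 82 genes passed limma's adjusted threshold (background 0.0134%, 2 of all measured genes). The values lay lower in null livers for 70 of the 82 and higher for 12, with a median change of -0.25 against 0.00 over all genes, and 49.4% of all genes lay lower. Centring on the median in place of loess turned this median to 0.01 (all genes 0.08), and uncorrected signals so centred gave -0.04 (all genes 0.19). At an unadjusted p under 0.05, 3 genes were lower (Cox4i1, Ndufa7 and Ndufb4, background 1.35%) and 0 higher (background 1.22%). The null arrays lay below the wild-type arrays for 15 genes (background 4.08%) and above them for 0 (background 3.65%).

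These 15 genes were Ndufa2, Ndufa4, Ndufa7, Ndufab1, Ndufb4, Ndufb8, Ndufb11, Ndufc1, Ndufc2 and Ndufs4 of the complex I names, Uqcr of complex III, Cox6c and Cox7a2 of complex IV, and Atp5f1 and Atp5j of complex V. None is among the 13 catalytic or redox subunits. For Ndufab1 and Atp5f1 another probe did not follow the chosen probe over the arrays. The groups overlapped on the other probes of Ndufab1, Ndufb8, Ndufc1, Cox7a2 and Atp5f1 that were measured on all 12 arrays. They did not overlap on the other probe of Ndufa7. Ndufab1 is the mitochondrial acyl carrier protein, Ndufs4 an accessory subunit of the matrix arm, and Atp5f1 and Atp5j are parts of the peripheral stalk. Ndufa4, by its name in complex I, is now counted with complex IV. Of complex V, 15 of 15 subunits lay below 0, with a median of -0.33. Atp5b (-0.001) and Atp5a1 (-0.03) lay close to 0. Their other probes were higher in null livers, at 0.38 and 0.34 for Atp5b and 0.13 for Atp5a1. With slide as a block 13 of the 15 lay lower, and with scan day as a block 12. The medians were -0.23 for complex I, -0.02 for complex II, -0.39 for complex III and -0.27 for complex IV. The 13 catalytic or redox subunits had a median of 0.00, with 6 higher and 7 lower, and the 64 others a median of -0.29, with 59 lower. Within slides the 13 gave 0.04 on slide 1 and -0.07 on slide 3, and the 64 others -0.24 and -0.26.

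**Figure D3:**
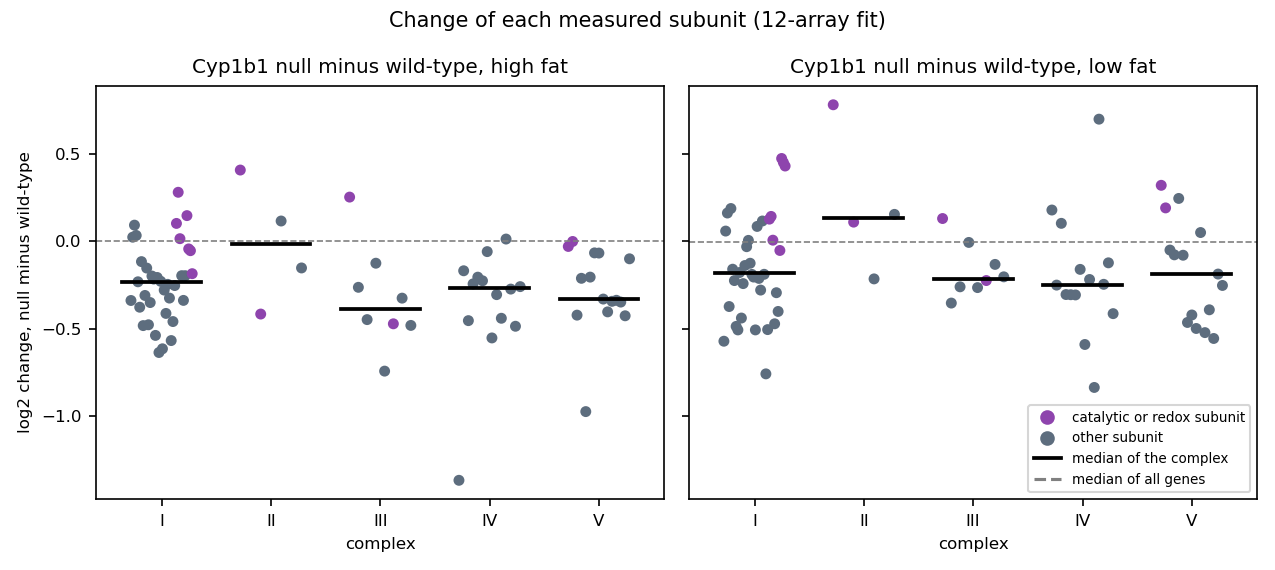
Log2 change of each measured subunit between null and wild-type livers, at high fat (left) and low fat (right), by complex, from the fit to 12 arrays. Purple points are catalytic or redox subunits, bars are medians of a complex and the dashed line is the median of all genes. At high fat all 15 subunits of complex V lay at or below 0, and Cox4i1 and Atp5e lay lowest.

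Slides 1 and 3 held both genotypes on high fat. The median change of the 82 genes was -0.18 within slide 1, with 63 lower, and -0.25 within slide 3, with 69 lower. On both slides 57 of the 82 genes (69.5%) were lower in null livers, against 24.9% of all genes, and 7 (8.54%) were higher on both, against 25.9%. These are shares of genes measured on the same 5 arrays, and genes are no replicates. With slide as a block the median was -0.15, with 66 lower and no gene past the threshold, and 5 genes had an unadjusted p under 0.05 (background 4.54%). They were Cox4i1 (-1.39), Atp5e (-0.87), Ndufb4 (-0.61), Ndufb9 (-0.48) and Ndufa7 (-0.46). Leaving out single arrays moved the median between -0.34 (null high-fat array 2 left out) and -0.18 (wild-type high-fat array 2 left out).

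**Figure D4:**
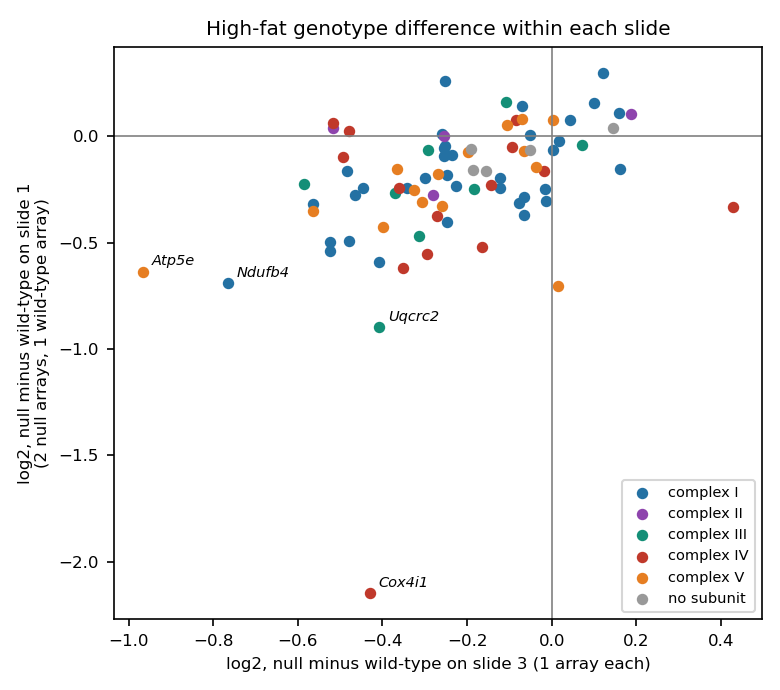
Log2 difference between null and wild-type livers on high fat within slide 3 (horizontal, 1 array each) and within slide 1 (vertical, 2 null arrays against 1 wild-type array), 1 point per gene, coloured by complex. Of the 82 genes, 57 lie below 0 on both axes, and Cox4i1 lies at -2.15 on slide 1 and -0.43 on slide 3.

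The largest single value at high fat rested on 1 slide. Cox4i1 (A_51_P165435), the common form of complex IV subunit IV, had -2.06, -0.12 and -2.45 on null high-fat arrays and -0.11, 0.31 and -0.73 on wild-type high-fat arrays. The null arrays of slide 1 were far below all other arrays, and the null array of slide 3 lay inside the wild-type range. The change was -1.37 (SE 0.55, limma's adjusted p = 1.00), with -2.15 within slide 1 and -0.43 within slide 3.

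Atp5e (A_51_P362054) had -1.77, -0.38 and -2.15 on null high-fat arrays and -1.32, 0.59 and -0.64 on wild-type high-fat arrays. Slide 1 held the lowest arrays of both genotypes, and the groups overlapped. The change was -0.98 (SE 0.57, limma's adjusted p = 1.00), with -0.64 within slide 1 and -0.97 within slide 3. Uqcrc2, core protein 2 of complex III, had -2.00, -0.15 and -1.04 against -0.62, 0.26 and -0.59, a change of -0.74 (SE 0.52, limma's adjusted p = 1.00), with overlap. Among the most positive changes were Sdha at 0.41 (SE 0.44) and Cyc1 at 0.25 (SE 0.43), each smaller than its own standard error, and the groups overlapped for both.

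Ndufa7 and Ndufb4, accessory subunits of complex I in the matrix and membrane arms, were chosen after their values were seen, for their unadjusted p. Ndufa7 (A_52_P347591) had 0.01, -0.04 and -0.08 on null high-fat arrays and 0.50, 0.48 and 0.33 on wild-type high-fat arrays. All null arrays lay below all wild-type arrays with a clear gap, and the change of -0.48 (SE 0.17) was -0.54 within slide 1 and -0.52 within slide 3. Ndufb4 had 0.05, -0.18 and -0.38 against 0.53, 0.58 and 0.23, again without overlap. Its change of -0.62 (SE 0.23) was -0.69 within slide 1 and -0.77 within slide 3. For both genes limma's adjusted p was 1.00.

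The genotype difference averaged over both diets was added after the data had been seen, since it sets 6 null arrays against 6 wild-type arrays. None of the 82 genes passed limma's adjusted threshold (background 0.288%, 43 of all measured genes), and the smallest adjusted p was 0.220. The median change was -0.24 against -0.01 over all genes, with 65 lower, and 0.20 (all genes 0.21) with median centring in place of loess. At an unadjusted p under 0.05, 12 genes were lower (background 4.19%) and 0 higher (background 4.21%). With slide as a block the median was -0.12. Without wild-type low-fat array 1, 3 genes passed, all lower: Cox7a2 at -0.80 (adjusted p = 0.0156), Ndufa4 at -0.66 (adjusted p = 0.0225) and Ndufc1 at -0.74 (adjusted p = 0.0264). In the sample channel alone Ndufa7 passed, at -0.50 (adjusted p = 0.0136).

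On the chosen probes all 6 null arrays lay below all 6 wild-type arrays for 2 genes (background 0.308%), Ndufc2 and Cox7a2. They lay above the wild-type arrays for 0 (background 0.402%). Ndufc2 (A_51_P357459) is an accessory subunit in the membrane arm of complex I. It had -0.20, -0.16 and -0.18 on null high-fat arrays, -0.27, -0.18 and -0.44 on null low-fat arrays, 0.04, 0.07 and 0.12 on wild-type high-fat arrays and 0.03, 0.14 and 0.44 on wild-type low-fat arrays. All null values were below 0 and all wild-type values above it, but only slides 1 and 3 held both genotypes. The averaged change was -0.38 (SE 0.10, limma's adjusted p = 0.220), and within slides it was -0.23 on slide 1 and -0.23 on slide 3 at high fat, and -0.42 on slide 3 at low fat. With slide as a block the averaged change was -0.31 (limma's adjusted p = 0.367).

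Cox7a2 had -0.62, -0.65 and -0.91 on null high-fat arrays and -0.52, -0.29 and -0.05 on wild-type high-fat arrays, beside its low-fat values above. Its averaged change was -0.64 (SE 0.17, limma's adjusted p = 0.230). The gap between the genotypes was narrow, with null arrays up to -0.55 and wild-type arrays down to -0.52. The lowest wild-type arrays lay on slide 1. On its other probe (A_52_P37894) the genotypes overlapped at both diets. There null arrays reached -0.86 at high fat and -1.02 at low fat, and wild-type arrays went down to -1.23 and -1.08. Ndufc1, whose null high-fat arrays at -0.64, -0.84 and -1.08 stood against -0.62, -0.40 and -0.17 on wild-type high-fat arrays, had an averaged change of -0.61 (SE 0.16, limma's adjusted p = 0.220). At both diets Cox7a2 and Ndufc1 were lower and Sdha higher in null livers under every alternative that was run.

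**Figure D5:**
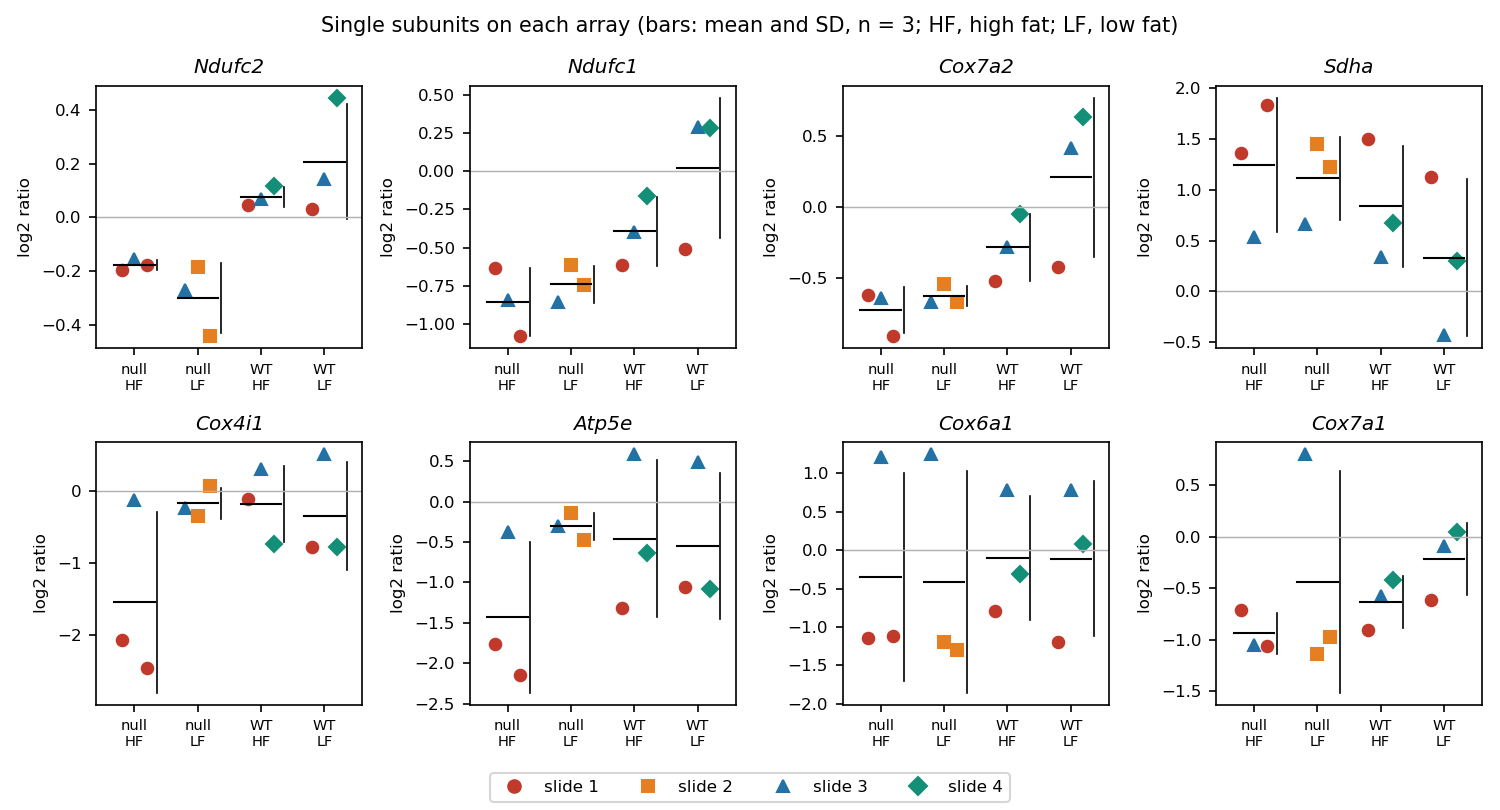
Log2 ratio of 8 subunits on each array, by genotype (null, then WT for wild-type) and diet, with the symbol giving the slide and bars giving the mean and SD of 3 arrays. All null arrays of Ndufc2 lie below 0 and all wild-type arrays above it, while Cox6a1 splits by slide in every group.

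Of the 82 genes, 53 (64.6%) were lower in null livers at both diets, against 33.5% of all genes. In all 3 differences within slides (slide 3 at low fat, slides 1 and 3 at high fat) 42 genes (51.2%) were lower, against 16.8% of all genes. The low-fat and high-fat comparisons share no array, but share slides and the reference pool.

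The third comparison was high against low fat in wild-type livers, in which each slide that held wild-type arrays held 1 of each diet. None of the 82 genes passed limma's adjusted threshold (background 0.00671%, 1 of all measured genes). The median change was 0.05 against 0.01 over all genes, with 45 higher and 37 lower. It was 0.20 on slide 1, -0.02 on slide 3 and -0.12 on slide 4, and so had no common direction. At an unadjusted p under 0.05, Atp5sl was higher (background 1.81%) and Atp5g1 lower (background 2.21%). That fit held no term for the slide that paired these arrays. With slide as a block, 7 of the 82 genes had an unadjusted limma p under 0.05, as did 1192 of all 14912 genes. No gene passed the adjusted threshold in that fit. On all 3 slides 10 genes (12.2%) were higher on high fat, against 14.5% of all genes, and 10 (12.2%) lower, against 12.6%. These shares were near those of the array as a whole.

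Atp5g1 (A_51_P183292), which encodes the proton-carrying c subunit of the ATP synthase, had -0.82, -0.35 and -0.47 on wild-type high-fat arrays and -0.08, 0.37 and -0.25 on wild-type low-fat arrays. Its groups did not overlap (2 genes lower, background 3.69%), and the change was -0.56 (SE 0.21, limma's adjusted p = 1.00), with -0.73, -0.72 and -0.22 on slides 1, 3 and 4. Atp5sl, which as Dmac2 is linked to assembly of complex I and not to the ATP synthase, had 0.65, 0.28 and 0.35 on wild-type high-fat arrays and -0.08, -0.13 and -0.04 on wild-type low-fat arrays. The change was 0.51 (SE 0.19, limma's adjusted p = 1.00), higher on each slide (0.73, 0.42 and 0.38), and Ndufaf1 was the other gene higher without overlap (background 3.55%). The remaining members with the most extreme changes were Sdha at 0.50 (SE 0.44), Ndufb5 of complex I at 0.49 (SE 0.41), Cox7a2 at -0.49 (SE 0.25) and Uqcr, the smallest subunit of complex III, at -0.44 (SE 0.27). The 13 catalytic or redox subunits had a median of 0.27 and the 64 others -0.02, and on slides 1, 3 and 4 the 13 gave 0.05, 0.65 and -0.04.

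Markers of cell types moved in the same diet comparison of wild-type livers. The median was -0.39 for Kupffer cell markers, with 13 of 13 lower, -0.40 for stellate cell markers (6 of 10 lower), -0.54 for erythroid markers (3 of 4 lower), -0.19 for endothelial markers (6 of 9 lower) and 0.36 for hepatocyte markers (7 of 11 higher). On slide 1 the median of the Kupffer cell markers was -1.16 on high fat and 0.16 on low fat. It was -0.91 and -1.53 on slide 3, and -0.24 and -0.33 on slide 4. Only slide 1 thus gave a lower Kupffer cell median on high fat, and the same held for the endothelial median. The stellate cell median was higher on slide 4 and the erythroid median on slide 3, while the hepatocyte median was higher on each of these slides. None of these markers passed limma's adjusted threshold, and their part in the values of the subunit genes was not tested.

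The fourth comparison was high against low fat in null livers. None of the 82 genes passed limma's adjusted threshold (background 0.00671%, 1 of all measured genes), and the median change was -0.05 against 0.02 over all genes, with 47 lower. Slide 3 was the only slide with null arrays of both diets, and its median was -0.04. At an unadjusted p under 0.05 Cox4i1 was lower (background 1.05%) and 0 genes were higher (background 0.858%). It had -2.06, -0.12 and -2.45 on null high-fat arrays, against -0.23, -0.35 and 0.07 on null low-fat arrays, and within slide 3 the change was 0.11, against -1.37 (SE 0.55, limma's adjusted p = 1.00) over all arrays. Atp5e at -1.13 (SE 0.57) likewise came to -0.08 within slide 3. Ndufa13, the complex I subunit also known as GRIM-19, was at -0.66 (SE 0.48). Ndufa4 at 0.39 (SE 0.25), Atp5k, the ATP synthase subunit e, at 0.38 (SE 0.26) and Ndufaf1 at 0.35 (SE 0.18) were the most positive. The null arrays of the diets did not overlap for Ndufa4, which was higher (background 2.3%), nor for Atp5j2, a membrane subunit of the ATP synthase, which was lower (background 2.53%). In the same comparison the median was 0.21 for hepatocyte markers, 0.14 for Kupffer cell markers and 0.29 for erythroid markers. With slide as a block these were 0.19, -0.18 and 0.40. The 3 brown and the 2 white adipocyte markers had -0.98 and -1.22, and both values rest on null low-fat array 1. The white median was 1.65 on that array and between -2.29 and -1.73 on the other null arrays. For the brown median these values were 1.45, and between -0.84 and -0.01. The part of these cell types was not tested.

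The diet response in null livers minus that in wild-type livers passed limma's adjusted threshold for none of the 82 genes (background 0%) and had an unadjusted p under 0.05 for 0 (background 0.899%). The median was -0.06 against 0.01 over all genes, with 50 lower, and leaving out wild-type low-fat array 1 turned it to 0.10. The most negative were Cox4i1 at -1.55 (SE 0.78), Atp5e at -1.22 (SE 0.81) and Cox7a2l at -0.69 (SE 0.44). With slide as a block these came to -0.58, -0.11 and -0.04. Within slide 3, which held 1 array of each group, they were 0.31, -0.18 and -0.08, and the median of the 82 genes was -0.03, with 43 lower. The most positive were Ndufa12, an accessory subunit of complex I, at 0.41 (SE 0.36), Atp5g1 at 0.40 (SE 0.29) and Cox7a2 at 0.40 (SE 0.35).

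A fixed set of core subunits was followed through both genotype comparisons. Ndufs1, the largest iron-sulphur subunit of complex I, differed between null and wild-type livers by 0.10 at high fat and 0.13 at low fat (SE 0.29 each). Ndufv1, which holds the NADH site, differed by -0.05 at high fat and 0.45 at low fat (SE 0.26 each), and with slide as a block its low-fat value was -0.13. Sdhb, the iron-sulphur subunit of complex II, stood at -0.42 and 0.11 (SE 0.38 each). These 3 subunits did not keep the direction of the low-fat value in every setting, and none passed.

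In complex III, Uqcrc1, core protein 1, differed by -0.13 at high fat and -0.01 at low fat (SE 0.24 each). The Rieske protein Uqcrfs1 differed by -0.47 and -0.22 (SE 0.29 each), and Cyc1 by 0.25 and 0.13 (SE 0.43 each). Cox5a, an accessory subunit of complex IV, differed by -0.17 and -0.25 (SE 0.16 each). The catalytic beta subunit of the ATP synthase, Atp5b, and its partner alpha, Atp5a1, stood at 0.00 (SE 0.35) and -0.03 (SE 0.23) at high fat, and at 0.19 and 0.32 at low fat. All these differences were within 2 standard errors of 0.

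Several complex IV subunits exist as forms of liver and of heart or skeletal muscle. Cox4i2, the lung form of subunit IV, Cox7b2 and Cox8c were well above background on 0 of 12 arrays, and Cox8b, a muscle and brown fat form, on 2, so these 4 names did not count as measured. Cox6a1 had values of -1.14, 1.21 and -1.12 on null high-fat arrays, 1.25, -1.20 and -1.30 on null low-fat arrays, -0.80, 0.78 and -0.30 on wild-type high-fat arrays and -1.19, 0.79 and 0.08 on wild-type low-fat arrays. Its highest value in each group was the array of slide 3, and its probe was saturated in the sample channel on 9 arrays, which limits what its differences can show. Cox6a2, its muscle form, differed by -0.21 at high fat and -0.31 at low fat (SE 0.17 each), and Cox8a, the common form of subunit VIII, by -0.26 and -0.41 (SE 0.22 each). The probe of Cox6a2 was dim (mean log2 brightness 7.03), and the log2 ratios deposited by the authors were -0.72 and -0.66 for it.

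Cox7a1, the heart and muscle form of subunit VIIa, had -0.71, -1.05 and -1.06 on null high-fat arrays, 0.80, -1.14 and -0.98 on null low-fat arrays, -0.91, -0.57 and -0.42 on wild-type high-fat arrays and -0.61, -0.09 and 0.05 on wild-type low-fat arrays. Null low-fat array 1 stood far above the 5 other null arrays. The dim probe of Cox8b did the same, with a log2 ratio of 2.82 on that array and 1.06 on wild-type low-fat array 2, against -0.07 to 0.05 on the 10 others. Null low-fat array 1 was also high for Cfd (3.47) and Cidea (3.45), markers of white and brown adipocytes, and low for Fabp4 (-0.18) and Prdm16 (-0.40). Of 6 listed markers each, 2 were measured for white and 3 for brown adipocytes, and their medians there were 1.65 and 1.45. For striated muscle 4 of 12 markers were measured, with a median of 0.04 on that array. The part of other cell types in the Cox7a1 and Cox8b values was not tested.

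To show where known regulators of these genes could bind, the promoter windows of RefSeq (GRCm38.p6, 250 bases before to 50 after each start) were searched on both strands. Windows were found for 70 of the 86 names, 76 windows in all. The core of the site of NRF1, a factor known for respiratory chain genes, written GCATGCG, was in 11 of the 76 windows (14.5%), against 3.58% of 32851 windows of all genes. The ETS site that GABP binds, CCGGAAG, was in 17 (22.4%, against 8.86%), the YY1 site AAGATGG in 13 (17.1%, against 6.34%) and the estrogen-related receptor site AAGGTCA in 8 (10.5%, against 4.72%). The Sp1 site GGGCGG (40.8%, against 35.7%) and the CCAAT box (42.1%, against 37.4%) were nearer to all windows. At least 1 of the NRF1, ETS and YY1 letters was in 34 of the 76 windows (44.7%) and in 17.3% of all windows. A match is a description of letters and not a site.

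The stretches from 170 bases before to 30 after the start are printed for 5 genes with the values above, 5′ to 3′, with NRF1, ETS and YY1 letters on either strand in capitals. Cox6a1 and Uqcr hold both NRF1 and ETS letters, Atp5e holds ETS letters, Ndufc1 holds YY1 letters just after its start, and Cox7a2 holds none of the 3 in this stretch.
Cox6a1, chr5:115348929-115349128, minus strand: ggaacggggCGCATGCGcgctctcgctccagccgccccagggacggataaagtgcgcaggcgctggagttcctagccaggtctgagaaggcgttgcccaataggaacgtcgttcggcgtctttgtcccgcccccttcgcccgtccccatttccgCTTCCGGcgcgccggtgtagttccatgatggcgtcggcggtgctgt
Uqcr, chr10:80406792-80406991, minus strand: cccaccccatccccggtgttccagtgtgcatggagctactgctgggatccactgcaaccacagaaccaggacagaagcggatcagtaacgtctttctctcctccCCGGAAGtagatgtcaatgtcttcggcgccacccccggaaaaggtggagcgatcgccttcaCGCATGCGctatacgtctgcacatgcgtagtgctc
Atp5e, chr2:174464072-174464271, minus strand: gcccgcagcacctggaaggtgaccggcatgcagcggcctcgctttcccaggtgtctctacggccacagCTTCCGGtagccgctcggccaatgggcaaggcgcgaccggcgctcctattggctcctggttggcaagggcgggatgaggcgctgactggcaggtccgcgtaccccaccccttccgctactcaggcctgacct
Ndufc1, chr3:51408926-51409125, minus strand: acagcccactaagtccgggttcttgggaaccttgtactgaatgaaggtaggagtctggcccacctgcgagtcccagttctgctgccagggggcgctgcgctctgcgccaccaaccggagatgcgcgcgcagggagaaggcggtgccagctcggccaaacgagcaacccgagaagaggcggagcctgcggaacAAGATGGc
Cox7a2, chr9:79759824-79760023, minus strand: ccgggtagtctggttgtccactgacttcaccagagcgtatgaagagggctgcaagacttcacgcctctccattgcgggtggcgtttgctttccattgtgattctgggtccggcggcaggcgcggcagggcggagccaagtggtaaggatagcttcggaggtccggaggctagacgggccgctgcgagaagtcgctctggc
Ndufc1 and Cox7a2, which lay lower in null livers at both diets, thus differ in these letters. Of the genes with large slide gaps, Cox6a1 and Atp5e hold ETS letters, while the whole windows of Ndufa8, Ndufb3 and Ndufa13 hold no ETS letters. The window of Ndufa8 holds NRF1 letters, as does that of Cox6a1. Names with no window in the table included Sdhc, Uqcrc2, Cox4i1, Ndufb9, Cox4i2, Ndufs1, Cyc1 and Cox6c.

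Several genes had more than 1 probe, and the brightest was used. For 22 genes other probes were measured on all 12 arrays, and for 11 of them the lowest correlation of another probe with the chosen probe over the arrays was under 0.5, with a median of 0.473. It was below 0 for Ndufab1 (-0.05), Atp5b (-0.27), Atp5h (-0.33), Uqcrc1 (-0.39) and Cox4nb (-0.56), which are therefore uncertain. Atp5f1 (0.03), Atp5g2 (0.15), Uqcrh (0.16) and Atp5a1 (0.22) were the next lowest and are uncertain too. For Ndufab1 all 3 probes were lower in null livers at high fat, but at low fat they differed in sign. Probes of a gene disagreed in sign for 3 genes at high fat and 6 at low fat. For Cox7a2, Ndufc1 and Sdha another probe followed the chosen probe with correlations of 0.91, 0.80 and 0.94 over the 12 arrays. On those probes of Cox7a2 and Ndufc1 the genotypes nevertheless overlapped at both diets.

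Genes that work beside these subunits were read from lists, none of which had a gene past limma's adjusted threshold in any of the 5 comparisons. Null against wild-type, assembly factors (45 of 46 measured) had medians of -0.09 at high fat and -0.02 at low fat, and genes of the mitochondrial ribosome (78 measured) -0.08 and -0.04. The citrate cycle (22 measured) had -0.11 and 0.04, electron carriers and coupling genes (25 of 30) -0.07 and -0.08, and biogenesis regulators (23 of 24) -0.10 and -0.05. The cytosolic ribosome (79 measured) had 0.05 and -0.16. At low fat the cytosolic ribosome thus lay close to the 82 subunit genes (-0.19), and with slide as a block it lay farther from 0, at -0.17 against -0.14. No test of a difference between these lists and the subunit genes was run.

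Atpif1, the inhibitor protein of the ATP synthase, had -1.03, -0.78 and -1.04 on null high-fat arrays, -0.67, -1.08 and -1.23 on null low-fat arrays, -0.46, -0.47 and -0.37 on wild-type high-fat arrays and -0.28, -0.13 and 0.04 on wild-type low-fat arrays. All null arrays lay below all wild-type arrays, and the change was -0.51 at high fat (SE 0.17, limma's adjusted p = 1.00) and -0.87 at low fat (SE 0.17, adjusted p = 0.148). Cox16, an assembly factor of complex IV, stood at -0.65 in both comparisons (SE 0.29). Idh3a, a subunit of the citrate cycle's isocitrate dehydrogenase, was at 0.96 at low fat (SE 0.30, adjusted p = 0.478). Nnt, the mitochondrial transhydrogenase in which C57BL6/J mice carry a deletion, differed by 0.80 at high fat (SE 0.17, adjusted p = 0.340) and 0.25 at low fat (SE 0.17, adjusted p = 0.834).

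Among regulators, Ppargc1a, the coactivator PGC-1α of mitochondrial biogenesis, and Tfam, the mitochondrial transcription factor, each stood at -0.36 at high fat and -0.43 at low fat, and Nrf1 at -0.01 and -0.02. Cycs, cytochrome c itself, stood at -0.34 and -0.15. None passed. None of the 13 names listed for subunits encoded by mitochondrial DNA was on the array in that form, but 2 probes named CYTB and COX2 were. CYTB had 1.31, -0.16 and 1.49 on null high-fat arrays, -0.43, 1.65 and 0.85 on null low-fat arrays, 1.30, -0.08 and 0.76 on wild-type high-fat arrays and 1.70, 0.11 and 0.44 on wild-type low-fat arrays. Its 4 values on slide 3 were the 4 lowest of the 12. COX2 had 0.96, 0.01 and 0.97 on null high-fat arrays, -0.33, 0.61 and 0.42 on null low-fat arrays, 1.06, 0.43 and 1.18 on wild-type high-fat arrays and 1.20, 0.14 and 1.51 on wild-type low-fat arrays. Here the lowest array of each group also lay on slide 3, but null low-fat array 3 of slide 2 lay just below the wild-type high-fat array of slide 3. The reference channel of each probe was saturated on 3 arrays.

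Markers of cell types were read beside the subunits. Null against wild-type, medians were -0.01 at high fat and 0.09 at low fat for hepatocyte markers, 0.13 and -0.29 for Kupffer cell markers (13 of 14 measured), 0.13 and -0.13 for endothelial markers (9 measured), and -0.20 and -0.49 for stellate cell markers (10 measured). Bile duct markers (6 measured) had 0.01 and -0.22, lymphocyte markers (7 of 10) 0.02 and -0.02, and erythroid markers (4 of 6) 0.22 and -0.50. Striated muscle markers had 0.04 and -0.07, the 3 brown adipocyte markers -0.15 and 0.23, and the 2 white adipocyte markers -1.86 and -0.61. With slide as a block the low-fat medians changed sign for Kupffer cell (0.05), lymphocyte (0.05) and white adipocyte markers (2.35). The other low-fat medians kept their sign, with brown adipocyte markers at 1.56. At high fat only the bile duct median changed sign, to -0.21. The part of these cell types in the values of the subunit genes was not tested.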

How the data were processed

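Per the file headers, Agilent's Feature Extraction (spot analysis 9.1.3.1) turned each scan into spot values. For both colours the deposited intensity columns used here hold mean signals and local background medians. The same software wrote processed intensities and log10 ratios of Cy5 to Cy3, per the file headers, and marks of spots above background, saturated or not uniform. The log2 ratios of the authors' deposited table come from limma (per the submitters' processing notes, with no version) and served as an alternative only.

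All values were computed again in R 4.3.3 with limma 3.58.1 (package data.table, version 1.17.8, read the files). The steps were normexp background correction (offset 50) and loess within each array on log2 of Cy3 over Cy5. Arrays were not scaled to each other, and no dyes were swapped. Left out were 120 spots marked not uniform. Probes counted as measured if Cy3 was well above background on every array of some group (21490 of 41174), and the brightest such probe stood for its gene. The fit had a mean per group over 12 arrays, with 8 residual and 3.16 prior degrees of freedom. P-values were adjusted by Benjamini-Hochberg over 14912 genes, and the threshold was 0.05. Simulated data with known changes were used to check these steps.

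The members, the gene lists and the comparisons were chosen with earlier results of these data known. Genes were named by rule: in each comparison any member past the threshold and the 3 most positive and 3 most negative members, in all comparisons 11 core subunits, the tissue forms, Cyp1b1 and Nnt, and of each list the 2 genes of smallest p (examples of these are printed) with Ppargc1a, Nrf1, Tfam and Cycs. A member that the rule names is not reported here. Others are said to be chosen after their values were seen. Same-numbered wild-type arrays of both diets share a slide, and the deviations of the 3 pairs from their group means correlated at 0.329, 0.335 and 0.463, so these are paired. The same check gave -0.439, -0.0514 and 0.0226 for the low-fat genotype comparison, -0.0226, 0.572 and -0.00710 for the high-fat one, and -0.303, -0.568 and 0.0859 for diet in null livers, which are not paired. The alternatives covered normalisation, filters, probe choice, blocks for slide, scan and replicate number, and each array left out.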

Additional observations from a re-analysis of the deposited data

How the results depend on the processing

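Over the 6 contrasts, the mean of both diets included, 153 of 155 combinations of comparison and setting had 0 members past limma's adjusted threshold. The exceptions were both in the mean of both diets: 1 member in the sample channel alone, and 3 without wild-type low-fat array 1. The median change of the members moved by more than the pooled SD of an array's median (0.224) in these cases. Median centring in place of loess gave 0.41 for null minus wild-type at low fat, 0.010 at high fat, 0.20 for the mean of both diets and -0.39 for the interaction, with all genes at 0.33, 0.08, 0.21 and -0.21. Uncorrected signals centred on the median gave 0.17 at low fat and 0.040 for the mean of both diets (all genes 0.18 each). Scale normalisation between arrays gave -0.78 for genotype at high fat, 0.34 for diet in wild-type, -0.51 for diet in null livers and -0.61 for the interaction. It stretched null high-fat array 1 and wild-type high-fat array 2, whose median absolute log2 ratios over all spots were 0.0156 and 0.0140, against 0.0868 to 0.165 on the others. Within scan 1 the low-fat genotype median was 0.079.

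Leaving out each array in turn moved the median between -0.38 and -0.03 for genotype at low fat, -0.34 and -0.18 at high fat, -0.32 and -0.16 for the mean of both diets, -0.11 and 0.16 for diet in wild-type, -0.15 and 0.04 for diet in null livers, and -0.17 and 0.10 for the interaction. The sign thus turned for both diet comparisons, with wild-type low-fat array 1 and null low-fat array 1 among the arrays that decide it, and for the interaction. Members past the threshold stayed at 0 in the 5 comparisons and ran between 0 and 3 for the mean of both diets. With the replicate number as a block the medians were -0.19 and -0.25 for genotype at low and high fat, 0.05 for diet in wild-type livers, -0.05 for diet in null livers, -0.06 for the interaction and -0.24 for the mean of both diets, with 0 members past the threshold. In the paired wild-type arrays alone the block gave 0.05 and 0 members, and the block changed no call. The number of all genes past the threshold ran between 0 and 53 at low fat (3 as reported), 0 and 62 at high fat (2), 0 and 5 for the wild-type diet comparison (1), 0 and 4 for the null diet comparison (1), and 0 and 328 for the mean of both diets (43). In the authors' deposited table the member medians were -0.16 at low fat, -0.25 at high fat and 0.02 for diet in wild-type. Of 5236 values of single named members under an alternative, 4891 lay within 1 SD of the reported value and 4725 kept its sign. Saturation and dim wild-type signal limit Cox6a1 and Cyp1b1.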
